A study of Mus musculus with 4 samples.

Results

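The genes described here are 10 members of the interleukin-1 (IL-1) system of ligands, receptors and processing enzyme, taken by symbol from tables of 23235 symbols: Il1a, Il1b, Il1rn, Il1r1, Il1r2, Il1rap, Il1rl1, Il33, Il18 and Casp1. Each symbol was found once in every table. RNA was sequenced from primary fibroblasts of C57BL/6 mouse embryos in 4 libraries, 1 per genotype. The labels give these as G3 Gadd45-/-Terc-/- (dKO), G3 Terc-/-, Gadd45-/- and Wild-type, and the design text names the first gene as Gadd45a. Terc encodes the RNA template of telomerase, and G3 stands for the third generation bred without it, in which telomeres are shortened. Both G3 libraries thus carry the Terc deletion, and no library joined it to an earlier generation. The labels do not say how many embryos went into a culture or how long it was grown.

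IL-1 alpha, IL-1 beta, IL-18 and IL-33 are ligands that alert surrounding cells to damage or infection. IL-1 alpha and IL-1 beta bind the receptor Il1r1, which recruits the accessory chain Il1rap and signals through Myd88 and IRAK kinases to NF-kB. The antagonist Il1rn occupies Il1r1 without signalling, and Il1r2 is a decoy that binds ligand without a signalling tail. IL-33 binds Il1rl1 (ST2), which shares Il1rap. Casp1 is the protease that matures IL-1 beta and IL-18, whereas IL-1 alpha can act without it and is known as an upstream inducer of the secretory programme of senescent fibroblasts.

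With 1 library per genotype there was no replicate error and no test, and each difference below is one between 2 single cultures. Expression is given as FPKM, fragment counts scaled by transcript length and library depth, and low FPKM values put the depth at about 19500000 to 19900000 fragments per library. Gadd45a was at 45.1 FPKM in the library labelled G3 dKO, 31.4 in that labelled G3 Terc-/-, 33.9 in that labelled Gadd45a-/- and 22.9 in WT, so the transcript went against the labels, and genotypes are given as labelled throughout. One value per gene does not show whether the deleted part of Gadd45a was transcribed. Terc was listed at 0 in both libraries labelled G3, at 0.259 FPKM in that labelled Gadd45a-/- and at 0.530 FPKM in WT. Values this low cannot serve as a check of the Terc labels. The library labelled Gadd45a-/- also held 4 of 5 sex-linked markers at 1 FPKM or more, with Xist at 0.154 FPKM, against 24.0 to 34.1 FPKM of Xist in the other 3 libraries, so that sex and genotype cannot be told apart in comparisons with it. All 12 fibroblast markers were at 1 FPKM or more in every library, and their sum was lowest in that labelled G3 Terc-/- (7590 FPKM, against 12398 to 13240 in the other 3). The markers did not move together. Col1a1, Col1a2, Col3a1, Pdgfrb, Vim, Postn and Twist1 were lowest in that library, whereas Twist2 (357 FPKM), Prrx1 (113 FPKM) and Pdgfra (37.1 FPKM) were highest in it. The 17 leukocyte markers summed to 21.8 FPKM in the library labelled G3 dKO, 12.9 in G3 Terc-/-, 7.55 in Gadd45a-/- and 6.31 in WT, with Cd3e and S100a9 at 0 in all of them and Ptprc at 0.0795 FPKM or less. Tyrobp (1.52 FPKM) and Fcer1g (1.77 FPKM) were highest in the library labelled G3 dKO, and S100a8 was at 2.96 FPKM in that labelled G3 Terc-/- and at 0 in the others. Lyz2 led the leukocyte markers in the library labelled G3 dKO (11.5 FPKM) and Cd14 in that labelled G3 Terc-/- (3.998 FPKM), and their part in the results below was not tested. Fewer cells of a type and less RNA per cell cannot be told apart in such bulk samples.

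The receptor genes Il1rl1, Il1r1 and Il1rap were the abundant part of the system, and the ligands and the decoy receptor Il1r2 were scarce. Averaged over the 4 libraries, Il1rl1 stood at 88.7 FPKM, above 95.9% of all symbols compared, followed by Il1r1 at 16.2 FPKM, Il1rap at 13.1 FPKM and Il1rn at 9.12 FPKM. Il18 averaged 1.24 FPKM, Il33 0.815, Il1a 0.551, Il1r2 0.423 and Casp1 0.0578 FPKM. Il1b was listed at 0 in every library. Only 5 of the 10 members reached a mean of 1 FPKM, and 7 were above 0 in every library.

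**Figure D1:**
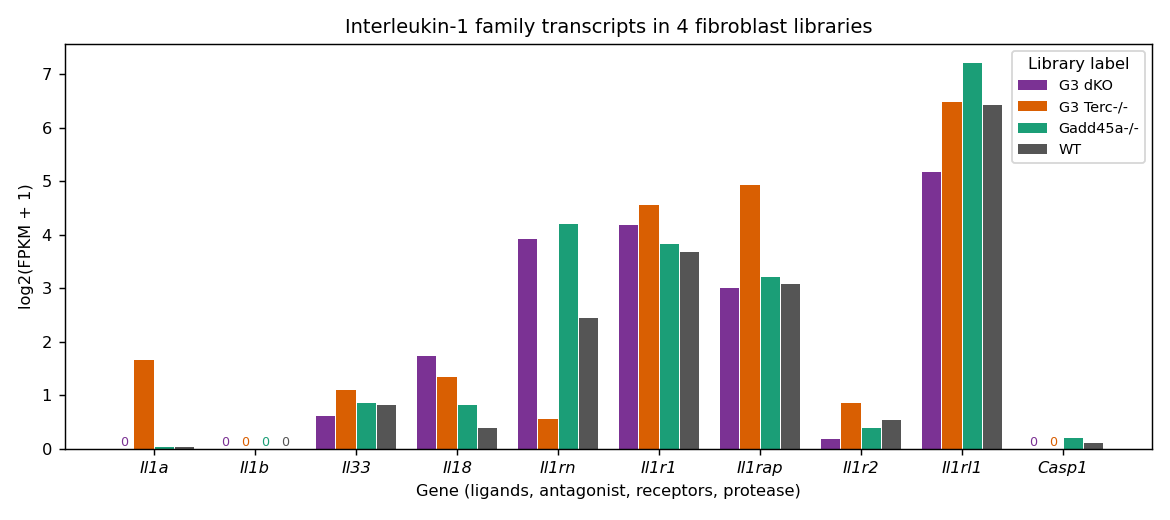
Expression of the 10 members as log2(FPKM + 1), 1 bar per library in the order G3 dKO, G3 Terc-/-, Gadd45a-/- and WT, with 0 written where the table lists 0. Il1a is visible only in the library labelled G3 Terc-/- (2.15 FPKM), the same library in which Il1rn is lowest (0.473 FPKM).

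Differences were taken on the log2(FPKM + 1) scale, and a member was called higher or lower at a size of 1 or more, a 2-fold difference of FPKM + 1. The library labelled G3 Terc-/- had more Il1a and Il1rap and less Il1rn than WT, that is 3 of 10 members past the rule against 9.03% of the 22501 symbols compared. Between the library labelled G3 dKO and that labelled G3 Terc-/- the same 3 genes were called in the opposite direction and Il1rl1 was lower as well, 4 of 10 members against 3.64% of all symbols. The comparisons share the library labelled G3 Terc-/-, so these opposite calls are not independent of each other. In the library labelled Gadd45a-/- only Il1rn was called, as higher than WT, 1 of 10 members against 0.329% of symbols. The library labelled G3 dKO had less Il1rl1 than that labelled Gadd45a-/-, the 1 call of 10 there, against 2.64% of symbols. Set against WT it had more Il1rn and Il18 and less Il1rl1, 3 of 10 members against 3.59% of symbols. The median over the 10 members was 0.30 for G3 Terc-/- minus WT, -0.43 for G3 dKO minus G3 Terc-/- and 0.11 for Gadd45a-/- minus WT, while the median over all symbols was 0 in each.

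**Figure D2:**
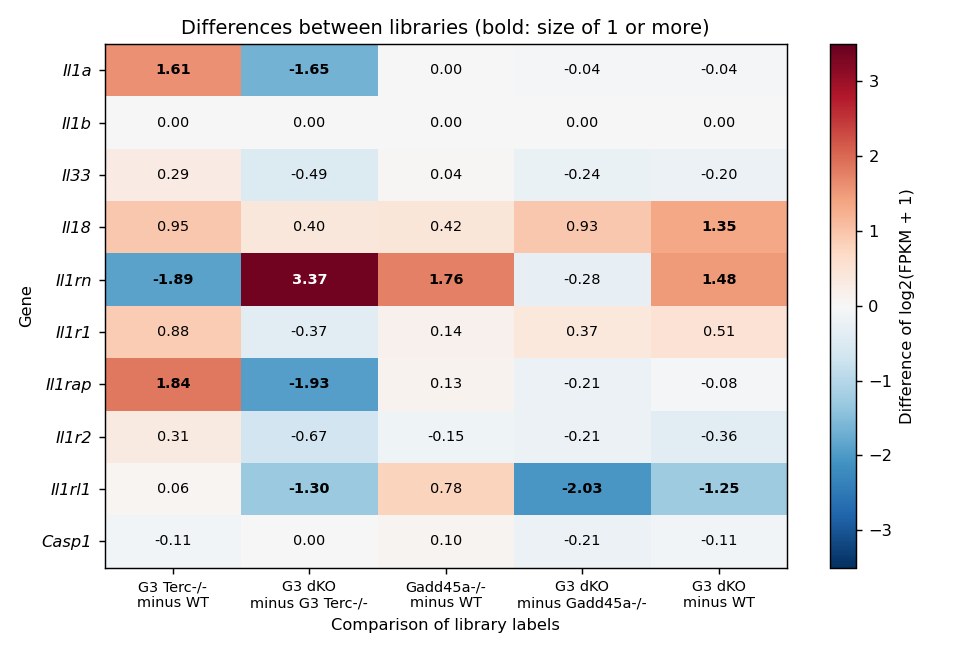
Difference of log2(FPKM + 1) for each member (rows) in the 5 comparisons of library labels (columns), each named as 1 library minus another. Il1a and Il1rap share positive values for G3 Terc-/- minus WT (1.61 and 1.84) and negative values for G3 dKO minus G3 Terc-/- (-1.65 and -1.93), and Il1rn has the opposite signs (-1.89 and 3.37).

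Il1a, which encodes the ligand IL-1 alpha, was detected above a handful of fragments in 1 library. It was listed at 0 in the library labelled G3 dKO, at 2.15 FPKM in that labelled G3 Terc-/-, at 0.0283 FPKM in that labelled Gadd45a-/- and at 0.0289 FPKM in WT. On the 1974 nt transcript these values stand for about 75 fragments in the library labelled G3 Terc-/-, 1 in Gadd45a-/- and 1 in WT, and 3 fragments would be 0.0850 to 0.0867 FPKM. Only the library labelled G3 Terc-/- was thus above that floor. The ratio of G3 Terc-/- to WT was 74.2, with a 95% interval of 12.9 to 2970 (exact Clopper-Pearson, on estimated fragments). That interval covers counting error alone, as do those that follow. On the log2(FPKM + 1) scale Il1a differed by 1.61 between G3 Terc-/- and WT and by -1.65 between G3 dKO and G3 Terc-/-. Il1b, the neighbouring gene on chromosome 2 and the ligand best known from macrophages, was at 0 in all 4 libraries, where 3 fragments would be 0.130 to 0.133 FPKM.

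The promoter window of Il1a is shown because the gene was detected above the floor in a single library. RefSeq's table gives 250 bases before the start and 50 after it (build GRCm38, which differs from the mm9 build of the files), and all 10 members had 1 or more windows, 15 in all. Capitals mark a match to the AP-1 motif TGANTCA, which in Il1a begins 12 bases before the start. The other motifs searched on both strands were GGGANNTTC for NF-kB and GAAANNGAA for the interferon-stimulated response element. Of 32851 windows of 300 bases in the table, 7.81% hold the AP-1 letters, 3.94% the NF-kB letters and 8.56% the interferon-response letters. Among the members' windows 2 held AP-1, 1 held the interferon-response letters and 12 held none of the 3 motifs. A match is a description of the letters and not a binding site.
Il1a, chr2:129309923-129310222, minus strand: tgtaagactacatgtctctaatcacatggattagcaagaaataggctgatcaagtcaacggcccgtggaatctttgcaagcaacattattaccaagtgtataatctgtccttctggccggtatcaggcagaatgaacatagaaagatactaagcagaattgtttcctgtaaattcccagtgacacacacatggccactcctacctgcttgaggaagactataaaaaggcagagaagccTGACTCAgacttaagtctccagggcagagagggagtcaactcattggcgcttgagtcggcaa

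Il33 encodes a nuclear alarmin that is released from damaged cells. It had 0.533 FPKM in the library labelled G3 dKO, 1.15 in G3 Terc-/-, 0.811 in Gadd45a-/- and 0.762 in WT, and no comparison passed the rule. About 25 fragments lie behind the value of G3 dKO, 53 behind G3 Terc-/-, 38 behind Gadd45a-/- and 35 behind WT. The ratio of G3 dKO to G3 Terc-/- was 0.463, with a counting interval of 0.275 to 0.758, whereas for G3 Terc-/- against WT the interval of 0.968 to 2.39 included 1.

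Il18 had an order of its own, with 2.35 FPKM in the library labelled G3 dKO, 1.53 in G3 Terc-/-, 0.756 in Gadd45a-/- and 0.309 in WT. It was the only member that was highest in the library labelled G3 dKO. These rest on few fragments, about 27 in G3 dKO, 18 in G3 Terc-/-, 9 in Gadd45a-/- and 4 in WT. The ratio of G3 dKO to WT was 7.58 (counting interval 2.64 to 29.8), a difference of 1.35 past the rule. G3 dKO and G3 Terc-/- were not separated beyond counting error (interval of the ratio 0.814 to 2.95), nor were Gadd45a-/- and WT (0.682 to 10.9). With 0.5 FPKM added in place of 1, the difference passed the rule also for G3 Terc-/- minus WT (1.33) and G3 dKO minus Gadd45a-/- (1.18). The 3 symbols most like Il18, by Euclidean distance between centred log2(FPKM + 1) profiles over the 4 libraries among 11592 symbols averaging at least 1 FPKM, were Socs3 (distance 0.0498), Dcaf12l1 (0.0926) and Krt20 (0.102). Socs3, an inhibitor of cytokine signalling, reached 25.3 FPKM in the library labelled G3 dKO, 19.4 in G3 Terc-/-, 13.4 in Gadd45a-/- and 9.27 in WT. With 4 points per profile such likeness is common, and 273 symbols lay within a distance of 0.5 of Il18.

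Il1rn, the antagonist, had the widest span among the members on the log2(FPKM + 1) scale (3.64). It was measured at 14.2 FPKM in the library labelled G3 dKO, 0.473 in G3 Terc-/-, 17.4 in Gadd45a-/- and 4.44 in WT. About 326 fragments lie behind the value of G3 dKO, 11 behind G3 Terc-/-, 401 behind Gadd45a-/- and 100 behind WT. The library labelled G3 Terc-/- was lowest and both libraries labelled as lacking Gadd45a were highest. The ratio of G3 Terc-/- to WT was 0.106 (counting interval 0.0515 to 0.199), a difference of -1.89. For G3 dKO over G3 Terc-/- the ratio was 30.0 (16.5 to 60.7), a difference of 3.37, and for Gadd45a-/- over WT it was 3.92 (3.14 to 4.93), a difference of 1.76. G3 dKO minus WT gave 1.48. The 2 comparisons of the Gadd45a label therefore had the same sign, and the difference between them was 1.61. Where Il1rn was lowest Il1a was highest, so that in the library labelled G3 Terc-/- Il1a stood at 4.54 times the FPKM of Il1rn, while in the other 3 libraries Il1a was at 1 estimated fragment or 0 and Il1rn at 4.44 FPKM or more.

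No symbol lay within a distance of 0.5 of the Il1rn profile. The nearest were the pseudogene Pisd-ps3, whose value is uncertain because of related copies (0.545), Nov, a secreted matrix protein (0.545), and Ptn, a heparin-binding growth factor (1.14). Nov was at 42.6 FPKM in the library labelled G3 dKO, 3.38 in G3 Terc-/-, 38.3 in Gadd45a-/- and 18.7 in WT. Leukocytes can make Il1rn, and the part of the leukocyte markers given above in its levels was not tested. Of the 3 promoter windows of Il1rn the first is shown, since it holds an AP-1 match beginning 141 bases before the start, as Il1a does closer to its own, although the transcripts differed in opposite directions between the libraries.
Il1rn, chr2:24336610-24336909, plus strand: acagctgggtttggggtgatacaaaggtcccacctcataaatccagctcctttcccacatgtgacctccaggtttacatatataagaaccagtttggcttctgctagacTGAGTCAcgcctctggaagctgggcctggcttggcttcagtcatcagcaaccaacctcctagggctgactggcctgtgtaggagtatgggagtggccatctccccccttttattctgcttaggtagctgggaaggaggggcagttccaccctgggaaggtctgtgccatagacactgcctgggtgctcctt

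Il1r1, the signalling receptor for IL-1, was well expressed everywhere. It had 17.3 FPKM in the library labelled G3 dKO, 22.7 in G3 Terc-/-, 13.2 in Gadd45a-/- and 11.8 in WT. Both G3 libraries were above both others, but no difference reached a size of 1, with 0.88 for G3 Terc-/- minus WT, -0.37 for G3 dKO minus G3 Terc-/- and 0.51 for G3 dKO minus WT.

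Il1rap, the accessory chain that both Il1r1 and Il1rl1 need for signalling, was set apart in a single library. It reached 7.04 FPKM in the library labelled G3 dKO, 29.5 in G3 Terc-/-, 8.30 in Gadd45a-/- and 7.50 in WT. The 3 libraries other than G3 Terc-/- lay within 7.04 to 8.30 FPKM. The ratio of G3 Terc-/- to WT was 3.94, a difference of 1.84, and the ratio of G3 dKO to G3 Terc-/- was 0.238, a difference of -1.93. Relative to Il1r1, Il1rap stood at 0.407 in the library labelled G3 dKO, 1.30 in G3 Terc-/-, 0.631 in Gadd45a-/- and 0.634 in WT on the FPKM scale, so the accessory chain exceeded the receptor in 1 library.

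The symbols nearest to Il1rap in profile were H2-T10, a class I histocompatibility gene (distance 0.129), the LIM-domain gene Pdlim4 (0.146) and the potassium channel gene Kcnq5 (0.154), and 109 symbols lay within 0.5. Pdlim4 was measured at 4.85 FPKM in the library labelled G3 dKO, 20.8 in G3 Terc-/-, 4.95 in Gadd45a-/- and 4.75 in WT. H2-T10 belongs to a family of similar genes, so its value is uncertain. The window of Il1rap is shown as the only one among the members with the interferon-response letters, in capitals, which begin at base 21 counted from the start, and as the richest in G and C among the members (72.0%, against 36.7% to 63.3% in the other windows).
Il1rap, chr16:26581455-26581754, plus strand: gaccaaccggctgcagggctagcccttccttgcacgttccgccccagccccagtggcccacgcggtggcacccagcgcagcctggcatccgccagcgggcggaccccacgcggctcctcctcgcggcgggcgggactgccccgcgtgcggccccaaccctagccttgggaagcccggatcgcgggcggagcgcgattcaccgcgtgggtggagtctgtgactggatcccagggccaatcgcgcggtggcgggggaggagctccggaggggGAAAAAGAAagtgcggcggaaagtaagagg

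Il1r2, the decoy receptor, was low in all libraries, at 0.132 FPKM in the library labelled G3 dKO, 0.801 in G3 Terc-/-, 0.308 in Gadd45a-/- and 0.450 in WT. This is about 3 fragments in G3 dKO, 19 in G3 Terc-/-, 7 in Gadd45a-/- and 11 in WT. The ratio of G3 dKO to G3 Terc-/- was 0.165 with a counting interval of 0.0312 to 0.560. No comparison reached the size rule, and the added 1 FPKM is larger than any of these values. With 0.5 FPKM added instead, the difference of G3 dKO minus G3 Terc-/- was -1.04 and passed it.

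Il1rl1, the receptor for IL-33, was the most abundant member in every library. It was at 35.1 FPKM in the library labelled G3 dKO, 88.2 in G3 Terc-/-, 146.7 in Gadd45a-/- and 84.8 in WT. The libraries labelled G3 Terc-/- and WT were close to each other, at a ratio of 1.04, with Gadd45a-/- above both and G3 dKO below both. The difference was -1.30 for G3 dKO minus G3 Terc-/-, -2.03 for G3 dKO minus Gadd45a-/-, -1.25 for G3 dKO minus WT and 0.78 for Gadd45a-/- minus WT. The Gadd45a label thus went with a lower level among G3 libraries and a higher one outside them, a double difference of -2.09. GENCODE M21 lists coding transcripts of 1216 to 5302 nt for Il1rl1, among which are a soluble and a membrane-bound form, and 1 value per gene does not separate them.

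Il1rl1 stood at 2.03 times the FPKM of Il1r1 in the library labelled G3 dKO, 3.89 in G3 Terc-/-, 11.2 in Gadd45a-/- and 7.16 in WT. The symbols nearest in profile were Gm9781 (distance 0.309), U90926 (0.468) and Ptk2b, a focal adhesion kinase relative (0.477). Ptk2b had 4.75 FPKM in the library labelled G3 dKO, 9.40 in G3 Terc-/-, 14.2 in Gadd45a-/- and 10.8 in WT. Mast cells are rich in Il1rl1, and of their markers Cpa3, Tpsb2 and Fcer1a were at 0 in all 4 libraries. Among the 9 mast cell markers Gata2 alone reached 1 FPKM, at 13.6 FPKM in the library labelled G3 dKO, 8.50 in G3 Terc-/-, 2.52 in Gadd45a-/- and 1.03 in WT, and the part of such cells in the level of Il1rl1 was not tested.

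Casp1 was near the limit of detection, listed at 0 in both G3 libraries, at 0.153 FPKM in the library labelled Gadd45a-/- and at 0.0782 FPKM in WT. These are about 4 fragments in Gadd45a-/- and 2 in WT, and 3 fragments would be 0.116 to 0.119 FPKM, so a difference between libraries was not detectable at this depth. Its neighbour on chromosome 9, Casp4 (caspase-11, which senses bacterial lipopolysaccharide inside cells), behaved otherwise, at 2.08 FPKM in the library labelled G3 dKO, 19.2 in G3 Terc-/-, 1.06 in Gadd45a-/- and 1.33 in WT. Of 16 inflammasome and processing genes 3 were higher and none lower in G3 Terc-/- against WT, namely Casp4, Gsdmd and S100a13, with 9.03% of all symbols called in either direction. Gsdmd, the pore-forming target of these caspases, reached 9.72 FPKM in the library labelled G3 dKO, 30.5 in G3 Terc-/-, 10.7 in Gadd45a-/- and 8.99 in WT. S100a13, which takes part in the export of IL-1 alpha, was at 35.7 FPKM in the library labelled G3 dKO, 49.98 in G3 Terc-/-, 21.3 in Gadd45a-/- and 18.9 in WT. Casp4 and Gsdmd were also the 2 genes of this list called lower in G3 dKO against G3 Terc-/-, where 3.64% of all symbols were called. The sensor gene Nlrp3 was at 0.146 FPKM or less in every library and the adaptor Pycard at 0.840 FPKM or less, each highest in G3 Terc-/-. Aim2, another sensor gene, was at 0.172 FPKM in the library labelled G3 dKO, 1.11 in G3 Terc-/-, 0.129 in Gadd45a-/- and 0.263 in WT. None of these genes passed the rule in any comparison, and Nlrp3 and Pycard were too low to reach it. They were chosen after their values were seen.

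Among the 5 other ligand genes none passed the rule in any comparison, beside 9.03% of all symbols at most. All 5 stayed at 0.948 FPKM or less, where a size of 1 cannot be reached with 1 FPKM added. Their lack of calls is therefore not a result about these genes. Il1f9 (IL-36 gamma) was the only ligand of these with a mean of 0.5 FPKM or more, at 0.556 FPKM in the library labelled G3 dKO, 0.948 in G3 Terc-/-, 0.520 in Gadd45a-/- and 0.816 in WT. None of the 7 other receptor and binding-protein genes passed the rule either, beside the same 9.03% of all symbols at most. Of these Il18r1, Sigirr, Il1rapl1 and Il1rapl2 were at 0.227 FPKM or less in every library, too low to reach it. Il1rl2, the IL-36 receptor, was measured at 7.49 FPKM in the library labelled G3 dKO, 6.79 in G3 Terc-/-, 9.80 in Gadd45a-/- and 10.8 in WT. Il18rap, the accessory chain of the IL-18 receptor, was at 2.64 FPKM in the library labelled G3 dKO, 4.43 in G3 Terc-/-, 1.49 in Gadd45a-/- and 1.75 in WT, and its difference of 0.98 for G3 Terc-/- minus WT lay just under the rule (1.13, past it, with 0.5 FPKM added). The ligand-binding chain Il18r1 was at 0.207 FPKM or less, and Il18bp, the soluble inhibitor of IL-18, at 1.13 FPKM in the library labelled G3 dKO, 0.761 in G3 Terc-/-, 0.794 in Gadd45a-/- and 0.513 in WT.

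Il1r2, Il1r1, Il1rl2, Il1rl1, Il18r1 and Il18rap lie next to each other in that order on chromosome 1, with Map4k4 and Slc9a4 on either side. Of the 6 genes, Il1r2, Il1r1, Il18r1 and Il18rap were highest in the library labelled G3 Terc-/-, Il1rl1 in Gadd45a-/- and Il1rl2 in WT. For G3 dKO minus G3 Terc-/- the difference was negative for all of them but Il1rl2, and only that of Il1rl1 passed the rule. Il1r2 and Il18r1 were below 1 FPKM throughout, and the flanking Map4k4 stayed within 80.7 to 95.1 FPKM in the 4 libraries.

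**Figure D3:**
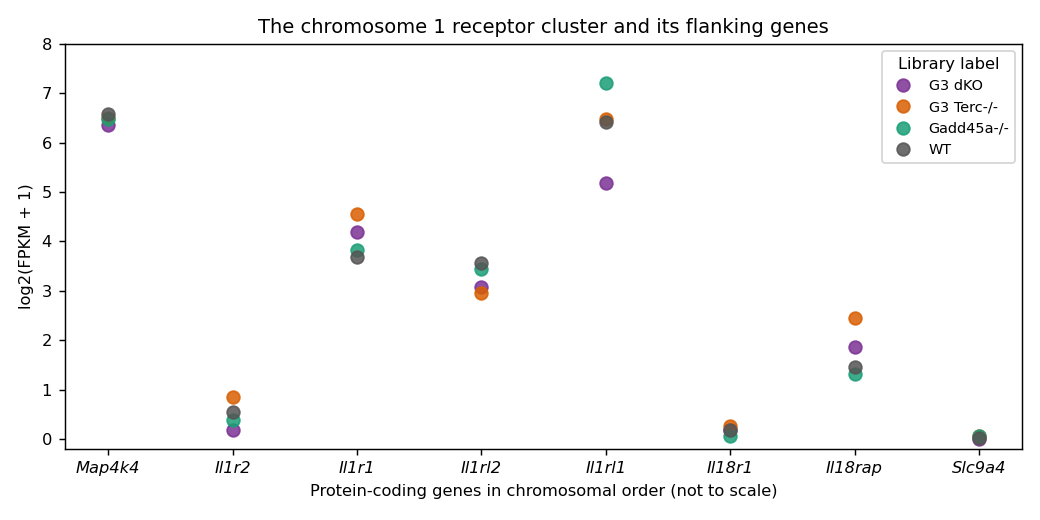
Log2(FPKM + 1) of the 6 receptor genes of the chromosome 1 cluster and 1 flanking gene on either side, in chromosomal order, 1 point per library. Il1rl1 spreads from 35.1 FPKM (G3 dKO) to 146.7 FPKM (Gadd45a-/-), while Il1rl2 next to it lies within 6.79 to 10.8 FPKM.

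Receptor-proximal signalling genes were present throughout, and all 14 had a mean FPKM of 1 or more. Only Irak3, an inhibitory member of the IRAK kinases, passed the rule in G3 Terc-/- (7.11 FPKM) against WT (1.76 FPKM). Called there were 9.03% of all symbols, and 1876 of the 11592 symbols with a mean FPKM of 1 or more. None of the 14 passed the rule in the other 4 comparisons. Irak3 was at 3.68 FPKM in the library labelled G3 dKO and 2.06 FPKM in that labelled Gadd45a-/-. The adaptor Myd88 had 18.7 FPKM in the library labelled G3 dKO, 18.5 in G3 Terc-/-, 16.2 in Gadd45a-/- and 15.6 in WT, and was chosen after its values were seen.

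Genes that fibroblasts are known to induce after IL-1 had the direction of Il1a and Il1rap. Of 28 such genes 27 were higher and none lower in the library labelled G3 Terc-/- than in WT, with a median difference of 2.91 (background 9.03% called in either direction, median 0). Set against G3 Terc-/-, 27 were lower in G3 dKO, none was higher and the median difference was -2.81 (background 3.64%). The list was drawn up with several of these differences known and most of its genes also respond to other NF-kB stimuli, so the counts describe the libraries and are no independent evidence about IL-1. Bdkrb1, a kinin receptor, was the gene short of the rule both times. By the larger of the 2 differences the leading genes were Saa3, Lcn2, Cxcl1 and Cxcl5, of which Saa3, an acute-phase amyloid, was at 8.73 FPKM in the library labelled G3 dKO, 5800 in G3 Terc-/-, 9.95 in Gadd45a-/- and 9.55 in WT. Differences of G3 dKO minus G3 Terc-/- were -9.22 for Saa3, -6.99 for the iron-binding lipocalin Lcn2, -5.22 for the chemokine Cxcl1 and -4.80 for Cxcl5.

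In the library labelled G3 dKO 4 of these 28 genes were higher than in WT, none was lower and the median was 0.0031. Of all symbols 3.59% were called in either direction in this comparison, and 2.03% as higher. The 4 were Il6 (4.77 FPKM in G3 dKO, 0.870 in WT), Ptgs2 (127.6 in G3 dKO, 28.6 in WT), Ptges (12.4 in G3 dKO, 4.82 in WT) and Csf1 (294 in G3 dKO, 99.3 in WT), named because they are the whole count. They encode a cytokine, 2 enzymes of prostaglandin E2 synthesis and a macrophage growth factor. Of these Ptgs2 alone was also called against the library labelled Gadd45a-/-, where it stood at 41.5 FPKM. None of the 28 passed the rule in Gadd45a-/- against WT, a comparison in which 0.329% of all symbols did.

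**Figure D4:**
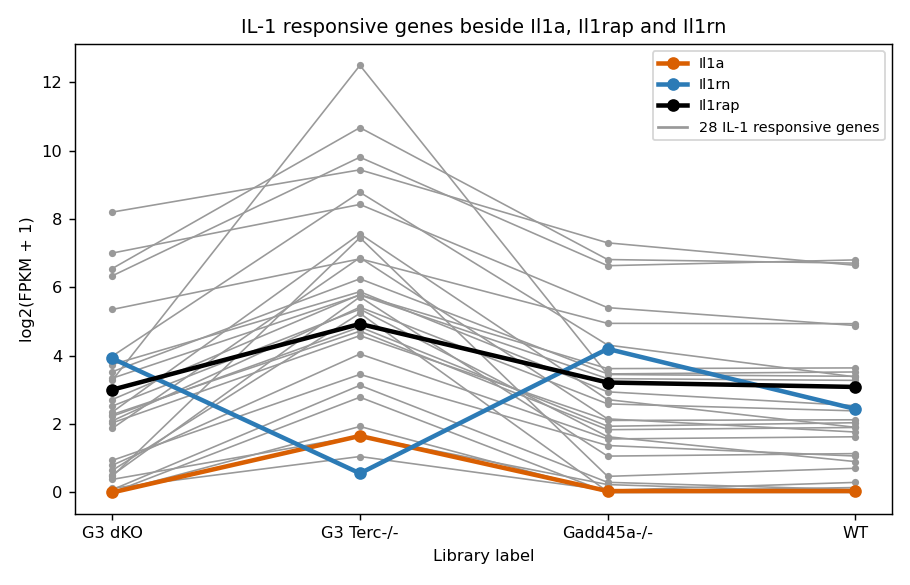
Log2(FPKM + 1) of 28 IL-1 responsive genes (grey) and of Il1a, Il1rap and Il1rn (coloured) in the 4 libraries, each line joining the values of 1 gene. All grey lines peak in the library labelled G3 Terc-/-, where Il1a (2.15 FPKM) and Il1rap (29.5 FPKM) are highest and Il1rn (0.473 FPKM) is lowest.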

How the data were processed

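Poly(A)-selected RNA of 4 mouse embryonic fibroblast cultures, 1 per genotype, was sequenced, per the labels' protocols. Each deposited table holds 1 FPKM value per gene symbol, computed by the authors. Per the submitters' processing notes the tools were TopHat2 2.1.1 and Cufflinks 2.2.1 and the build mm9, with no role stated for any of them. Annotation, strand setting and filters are not given in the sources used here. One value per gene hides differences between isoforms, and values of near-identical gene copies are uncertain.

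Symbols of short non-coding RNA (734) were left out and 22501 compared, with no filter on low values. Differences of log2(FPKM + 1) were called at a size of 1. The rule was tested on simulated data that held counting error only, with changes placed in well expressed genes. That test does not bear on differences between cultures or on scarce members. Depth was estimated from FPKM up to 0.05 of genes with 1 transcript of 1500 to 8000 nt, less a fragment of 200 nt, where 78.4% to 80.4% of values lay within 0.1 of a whole fragment. That share is no independent check, since the depth was fitted to these same values. The depths were 19900000 (G3 dKO), 19700000 (G3 Terc-/-), 19900000 (Gadd45a-/-) and 19500000 (WT) fragments. Fragments behind a value used the median GENCODE M21 coding transcript of the gene and are approximate where isoforms differ in length. The floor is 3 fragments per library. Intervals cover counting error only and not differences between cultures. They are too narrow where fragments are PCR copies, which are not independent molecules. Python 3.11.15, pandas 2.3.3, scipy 1.17.1 and matplotlib 3.10.9 were used.

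Members, gene lists and markers were chosen with earlier results of these data known. Named from each list were up to 4 genes past the rule with the largest size in G3 Terc-/- minus WT or G3 dKO minus G3 Terc-/-, and, in lists under 8 genes, every gene with a mean FPKM of 0.5 or more. Likeness was computed for members averaging at least 1 FPKM that spanned at least 1 on the log2 scale, with 3 genes named. Of the lists of other cell types, the 8 endothelial markers were all below 1 FPKM in every library. The 10 epithelial markers summed to 19.2 FPKM in the library labelled G3 dKO, 10.0 in G3 Terc-/-, 17.9 in Gadd45a-/- and 22.0 in WT, led by Krt19.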

Additional observations from a re-analysis of the deposited data

Results flagged for a closer look

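Some differences had opposite signs on the 2 backgrounds, and these differences between differences were not tested, since each rests on 4 single libraries. For the Gadd45a label, Il1rl1 differed by -1.30 between the G3 libraries and by 0.78 between the others, a double difference of -2.09. Gsdmd differed by -1.56 and 0.22 (double difference -1.78), Cxcl1 by -5.22 and 0.81 (-6.03) and Cxcl5 by -4.80 and 0.93 (-5.73). For the G3 Terc label, Il1rap differed by -0.21 among libraries labelled as lacking Gadd45a and by 1.84 among the others, a double difference of -2.06. Cxcl1 differed by -0.37 and 5.66, and Cxcl5 by -0.33 and 5.40.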

How the results depend on the processing

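No paired analysis was possible because each genotype had 1 library and no test was run. No library could be left out of a comparison for the same reason. No named difference changed sign past the rule under any alternative. Median-of-ratios size factors, quantile normalization and keeping short non-coding RNA moved none of the member differences across the rule. The filter at a mean of 1 FPKM kept 5 of the 10 members and moved none of theirs, but it dropped Il1a. Members called were then 2 in place of 3 for G3 Terc-/- minus WT and 3 in place of 4 for G3 dKO minus G3 Terc-/-. Of all 11592 symbols that the filter kept, 1876 were called for G3 Terc-/- minus WT and 730 for G3 dKO minus G3 Terc-/-. Quantile normalization gave 291 higher and 549 lower symbols, in place of 192 and 628, for G3 dKO minus G3 Terc-/-. With a pseudocount of 0.1 FPKM, members called were 2 in place of 1 for Gadd45a-/- minus WT and 3 in place of 1 for G3 dKO minus Gadd45a-/- (2 with 0.5 FPKM). With either 0.1 or 0.5 FPKM they were 4 in place of 3 for G3 Terc-/- minus WT and 5 in place of 4 for G3 dKO minus G3 Terc-/-. For G3 dKO minus WT they were 4 in place of 3 with 0.1 FPKM. All symbols called with 0.1 FPKM were 4145 for G3 Terc-/- minus WT, 2357 for G3 dKO minus G3 Terc-/-, 821 for Gadd45a-/- minus WT, 2033 for G3 dKO minus Gadd45a-/- and 2443 for G3 dKO minus WT. With 0.5 FPKM they were 155 for Gadd45a-/- minus WT and 897 for G3 dKO minus Gadd45a-/-, and with short non-coding RNA kept 180 for Gadd45a-/- minus WT. For G3 Terc-/- minus WT and G3 dKO minus G3 Terc-/-, 0.1 FPKM called 2 and 1 of the other ligands, 2 and 1 of the other receptors and 5 and 5 inflammasome genes. With 0.5 FPKM, 1 other receptor and 5 inflammasome genes were called for G3 Terc-/- minus WT. A smaller pseudocount lets genes of few fragments pass. At this depth Il1b and Casp1 could not be compared between libraries, and Il1r2 and Il18 only coarsely.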

Other observations

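Genes beside the members on their chromosomes, in RefSeq's order, did not all share the pattern of the member. Ckap2l, a mitotic spindle gene next to Il1a, reached 6.58 FPKM in the library labelled G3 dKO, 2.47 in G3 Terc-/-, 14.2 in Gadd45a-/- and 16.5 in WT, the opposite of Il1a in being lowest in G3 Terc-/-. Psd4, next to Il1rn on the side away from the IL-36 genes, was at 0.671 FPKM or less in every library. Casp12, which follows Casp4 beside Casp1, lay within 9.75 to 11.3 FPKM. Uts2d, a urotensin-type peptide gene 3 places from Il1rap, was measured at 1.51 FPKM in the library labelled G3 dKO, 3.61 in G3 Terc-/-, 0.555 in Gadd45a-/- and 0.162 in WT. Like Il1rap it was highest in G3 Terc-/-. These neighbours were chosen after their values were seen.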
